A study of Mus musculus with 8 samples.

Results

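Interferon response genes are the genes that cells switch on when interferons, the cytokines of antiviral defence, bind their receptors, and 40 of them were followed here in mouse muscle stem cells. The members were given as a list of gene symbols, and each symbol stood on exactly 1 of 45706 gene lines of the count table. After the filter on low counts, 39 of the 40 were tested among 19054 genes, and Oas1a was the one left out. All 8 libraries came from wild type C57BL/6 females of 8 to 12 weeks, from hindlimb muscle stem cells sorted as positive for alpha7-integrin and CD34 and negative for CD45, Sca1, CD31 and CD11b. The fresh group (n = 5) was processed straight from the sort, and the cultured group (n = 3) spent 48 h on a 12 kPa hydrogel, a soft gel used in place of plastic, with a growth medium of 20% fetal bovine serum. Fresh replicates 1 to 3 were sequenced as run 1, whereas replicates 4 and 5 were sequenced as run 2, in the lane that also held the cultured libraries. Neither an infection nor an added interferon is named in the labels for any group.

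Type I interferons bind the receptor pair IFNAR1 and IFNAR2, whose kinases JAK1 and TYK2 switch on the transcription factor ISGF3. ISGF3 holds STAT2 and IRF9 and binds a promoter element called ISRE, while the response to interferon gamma runs mainly through an element called GAS. Many target genes also have a basal level in unstimulated cells, and intrinsic expression of some of them, such as the IFITM genes, is a known feature of stem cells.

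The promoter windows of the members, 250 bases before to 50 bases after each start, carried the ISRE core far more often than promoters in general. RefSeq windows on GRCm38.p6 were matched by symbol for 34 of the 40 members. The ISRE letters, GAAA and GAAA parted by any 2 bases, searched on both strands, stood in a window of 19 of these 34 genes (55.9%), against 3.99% of all 27025 genes with a window. The GAS letters TTCNNNGAA, which read the same on both strands, stood in 12 of the 34 (35.3%), against 9.55% of all genes. Of the 16 matched members that were lower in culture, 11 held the ISRE letters, and so did 7 of the 17 that did not pass the test. The GAS letters leaned the other way, in 4 of those 16 and in 7 of those 17. These matches are a description of letters, not of bound sites. The stretches below show the element in members that stand for the patterns described next: Ifit1, Ifit3 and Gbp7 had no count in culture, Igtp had almost none, B2m fell and stayed abundant, Isg15 was at the edge of detection, and Irf1 is shown for its GAS match. Capitals mark 1 match in each stretch, which is given 5′ to 3′ on the strand of the gene.
Ifit1, ISRE ending 75 bases before the start, chr19:34640784-34640833, plus strand: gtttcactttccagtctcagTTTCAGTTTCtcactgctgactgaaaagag
Ifit3, ISRE ending 112 bases before the start, chr19:34583387-34583436, plus strand: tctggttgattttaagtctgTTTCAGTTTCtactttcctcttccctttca
Gbp7, ISRE ending 43 bases before the start, chr3:142530263-142530312, plus strand: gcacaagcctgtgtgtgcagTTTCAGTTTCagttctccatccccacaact
Igtp, ISRE ending 24 bases before the start, chr11:58199502-58199551, plus strand: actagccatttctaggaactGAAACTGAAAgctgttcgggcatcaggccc
B2m, ISRE ending 129 bases before the start, chr2:122147528-122147577, plus strand: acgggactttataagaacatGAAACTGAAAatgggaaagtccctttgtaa
Isg15, ISRE ending 62 bases before the start, chr4:156200861-156200910, minus strand: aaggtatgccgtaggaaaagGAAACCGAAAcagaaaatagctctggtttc
Irf1, GAS ending 81 bases before the start, chr11:53769904-53769952, plus strand: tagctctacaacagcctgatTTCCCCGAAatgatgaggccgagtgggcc

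Cultured cells held less of the interferon response transcripts than fresh cells. Of the 39 members tested, 19 fell, none rose and 20 did not pass the test (edgeR quasi-likelihood test with sequencing run as a term, Benjamini-Hochberg adjusted p under 0.05 over all genes). That is 48.7% of the members lower, where 18.0% of all genes tested were lower and 8.87% were higher. No member was higher at an unadjusted p under 0.05 either. DESeq2 called 17 members lower and none higher, gave no adjusted p for 5 members, and called 22.8% of all genes lower. In 25 of the 39 (64.1%) every cultured library lay below every fresh one, as in 26.1% of all genes tested, and 11 of the 39 (28.2%) had no count in any cultured library, as in 12.5% of all. The median fitted log2 fold change of the members was -3.44, and it was -2.94 over 37 members when genes without a cultured count were set at their bound, against -0.21 over all genes tested. Without scaling factors, which moved the median gene by 0.41 on the log2 scale, 16 members and 15% of all genes were lower, and 53.8% of all calls were lower against 67.0% with them. Within run 2 alone, fresh replicates 4 and 5 against the cultured libraries, 32 members could be tested and 10 were lower, with 10.9% of all genes lower.

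**Figure D1:**
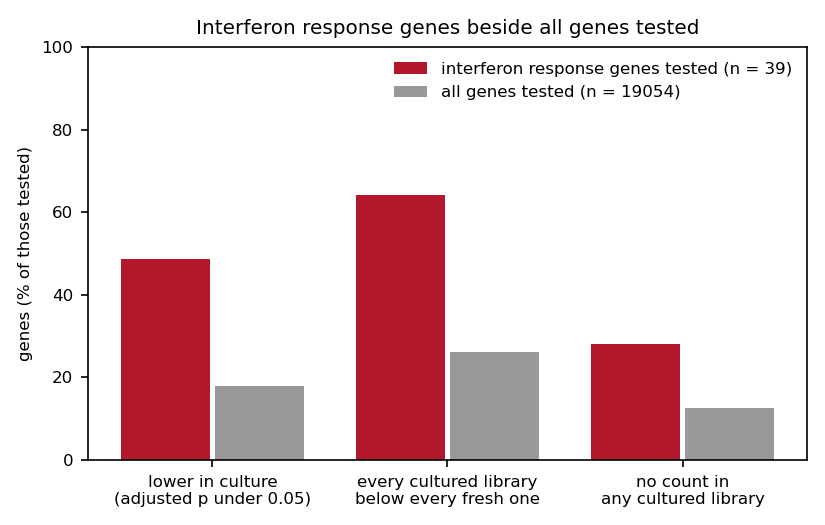
Share of genes (%, y axis) that were lower in culture, that had every cultured library below every fresh one, and that had no count in culture, for the 39 interferon response genes tested (red) and all 19054 genes tested (grey). The red bars stand at 48.7, 64.1 and 28.2%, and the grey ones at 18.0, 26.1 and 12.5%.

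Total counts lay between 13919440 and 20068154 per library. The cultured libraries detected 13281 to 15121 of the tested genes, the run-1 fresh ones 18931 to 18939, and the run-2 fresh ones 17151 and 17315. Mitochondrial ribosomal RNA took 11.1 to 18.4% of cultured counts and 5.25 to 10.5% of run-1 fresh counts. In the run-2 fresh libraries it took 26.5 and 23.2%, so within run 2 the fresh and cultured values did not overlap. All 9 myogenic markers were detected in both groups. Their summed level was 5463 to 5986 CPM (counts scaled to a common library size) in fresh and 1213 to 1366 CPM in cultured libraries. Of the 9, 7 were lower and 1 was higher. Of 12 immune markers, 8 could be tested, of which 3 were lower, none was higher and the median log2 fold change was 0.32, with summed levels of 28.6 to 78.0 CPM in fresh and 3.87 to 10.3 CPM in cultured libraries, and Lyz2, Csf1r, Tyrobp, Cd74, Adgre1 and Cd79a were at 0 in culture. Of 10 endothelial markers 7 could be tested and 2 were lower (94.3 to 137 CPM in fresh, 1.70 to 47.0 CPM in cultured), and Kdr, Tie1, Cldn5 and Egfl7 were at 0. Of 10 pericyte markers 8 were lower (821 to 3244 CPM, then 36.4 to 51.6 CPM, with Abcc9 and Kcnj8 at 0), and of 10 fibro-adipogenic markers 8 were lower (1074 to 1656 CPM, then 24.8 to 36.1 CPM, with Ly6a and Cd248 at 0). Of 8 Schwann cell markers 6 were lower (607 to 1177 CPM, then 413 to 587 CPM, with Sox10, S100b, Gfra3 and Cdh19 at 0). The part of such cells in the interferon values was not tested, and in bulk RNA fewer cells of a type and less RNA per cell cannot be told apart. The summed level of the 40 members was 1305 to 1719 CPM in fresh and 401.4 to 550.8 CPM in cultured libraries.

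**Figure D2:**
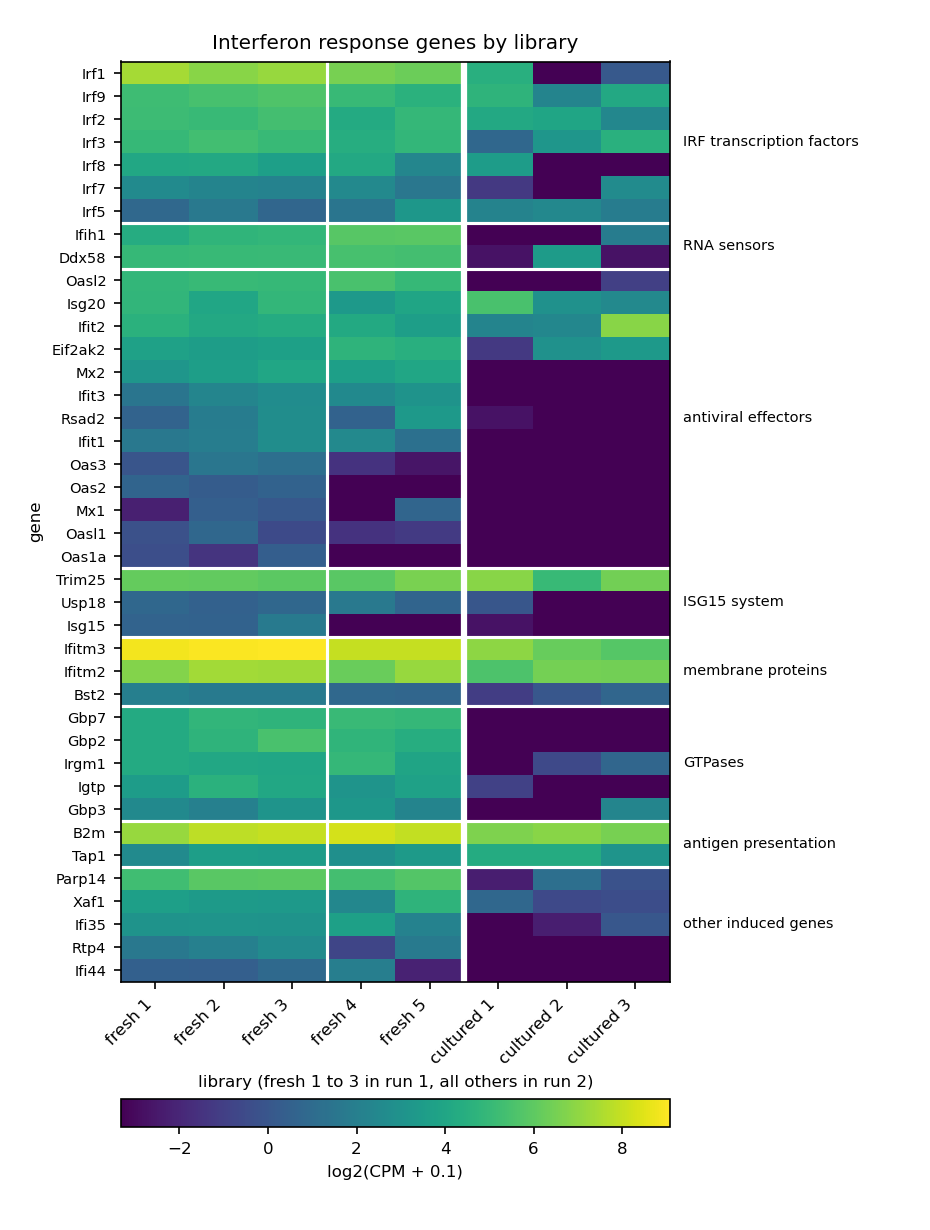
Level of all 40 members (rows, grouped by role) in each library (columns) as log2(CPM + 0.1), where the darkest colour is 0 counts. The cultured columns hold 18 to 23 detected members each and the fresh columns 36 to 40.

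Per kilobase of annotated exon, the most abundant members in fresh cells were Ifitm3 at 596 CPM, B2m at 273 CPM and Ifitm2 at 198 CPM. Irf1 followed at 30.0 CPM per kilobase, and the other 36 lay between 0.175 and 12.5 CPM per kilobase. All further levels are in CPM of the scaled library and compare libraries, not genes.

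The interferon regulatory factors, the transcription factors that drive and shape the response, were present in fresh cells, and none of the 7 passed the test in culture. Irf1, an early activator induced through GAS, stood at 167, 116, 143, 91.3 and 78.1 CPM in fresh replicates 1 to 5 and at 22.4, 0 and 1.02 CPM in cultured replicates 1 to 3. The groups did not overlap, and the spread of the cultured libraries was wide, so that the log2 fold change of -3.44 ± 1.48 (± SE) did not pass (adjusted p = 0.119, edgeR). Without cultured replicate 1 it was -7.29. That library held 95.6% of the cultured level, so leaving it out all but fixes a large fall and is no test of one. Irf2, mostly a repressor of the same elements, stood at 35.9, 32.4, 41.9, 18.8 and 30.8 CPM in fresh against 18.0, 15.7 and 5.20 CPM in cultured cells (-0.93 ± 0.56; adjusted p = 0.252). Irf3, the constitutive factor that is activated by phosphorylation when viral nucleic acid is sensed, stood at 31.0, 40.4, 32.5, 21.3 and 29.7 CPM in fresh against 1.69, 9.16 and 23.1 CPM in cultured cells (-1.17 ± 0.83; adjusted p = 0.332). Its highest cultured library overlapped the fresh range, while those of Irf2 did not. Irf9, the DNA-binding part of ISGF3, stood at 37.0, 44.0, 50.7, 32.5 and 23.8 CPM in fresh against 26.8, 4.74 and 17.6 CPM in cultured cells (-0.78 ± 0.62; adjusted p = 0.391), again with overlap. Irf7, the amplifier of type I interferon production, averaged 4.73 ± 1.24 CPM in fresh (mean ± SD, n = 5) and 2.19 ± 3.53 CPM in cultured cells (n = 3), and Irf5 3.70 ± 3.21 and 4.55 ± 0.896 CPM. The run-2 fresh mean of Irf5 was 6.02 CPM. Irf8, a factor best known from myeloid cells, averaged 14.1 ± 5.46 CPM in fresh cells and was seen in cultured replicate 1 alone, at 11.5 CPM. The fold changes not passing were -0.94 ± 1.68 for Irf7, -0.40 ± 0.89 for Irf5 and -1.56 ± 1.94 for Irf8 (adjusted p = 0.733, 0.792 and 0.598, edgeR). Irf8 had no cultured count left without cultured replicate 1. Irf7 was at -4.71 without cultured replicate 3, which held 95.2% of its cultured level, so this is no test of a fall either.

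Ddx58 and Ifih1 encode RIG-I and MDA5, the helicases that detect viral RNA in the cytosol. Ifih1 stood at 20.1, 27.2, 29.6, 58.4 and 60.5 CPM in the fresh libraries and at 0, 0 and 3.57 CPM in the cultured ones. All cultured libraries lay far below the fresh ones, and Ifih1 fell (log2 fold change -5.63 ± 1.65; adjusted p = 0.0347, edgeR). Ddx58 stood at 31.4, 32.7, 33.3, 43.5 and 41.0 CPM in fresh cells and at 0.0527, 10.9 and 0.0510 CPM in cultured ones. Cultured replicates 1 and 3 held 1 count each and cultured replicate 2 held 212, and the gene did not pass (-3.52 ± 1.61; adjusted p = 0.140). Without cultured replicate 2, which held 99.1% of the cultured level, it was -9.47, and such a choice of library is no test of a fall. The call of Ifih1 was lost without any 1 fresh library (adjusted p between 0.0596 and 0.112), in run 2 alone (0.128), against run-1 fresh libraries (0.108) and without scaling factors (0.0504). Its fold change was -4.99 without cultured replicate 1 or 2, and no cultured count was left without cultured replicate 3.

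The antiviral effectors, which are the IFIT, OAS and MX families with Rsad2, Isg20 and Eif2ak2, held 8 of the 12 members without a cultured count. Of the 12 effectors tested, 7 fell. Mx2, a dynamin-like GTPase that GENCODE lists as a polymorphic pseudogene in this strain, stood at 8.95, 12.2, 16.2, 12.6 and 16.2 CPM in fresh cells, and no cultured library held a count. Taking 3 counts over the 3 cultured libraries as the floor, it was at least 278-fold lower (adjusted p = 0.00121, edgeR). Oasl2, an oligoadenylate synthetase-like protein, stood at 29.9, 33.1, 31.9, 46.0 and 31.1 CPM in fresh cells and at 0, 0 and 0.408 CPM in culture (-8.06 ± 1.21; adjusted p = 0.00245). For both genes the fresh libraries of the 2 runs lay side by side, and cultured cells were at or near 0. Ifit3, which binds IFIT1 in a complex that recognises foreign RNA ends, stood at 2.68, 4.88, 6.48, 5.81 and 8.27 CPM in fresh cells and was at 0 in culture, at least 136-fold lower (adjusted p = 0.00388). Its near-identical neighbour Ifit3b, with which it can share reads, was also at 0 there (1.72 ± 0.677 CPM in fresh cells). Ifit1 averaged 4.21 ± 1.78 CPM in fresh cells, without any count in culture, at least 76.3-fold lower (adjusted p = 0.00563), or 44.1-fold without fresh replicate 4. Rsad2, which encodes viperin, averaged 4.58 ± 3.64 CPM in fresh cells and had 1 cultured count (adjusted p = 0.00834, edgeR). Its ratio of run-2 fresh to cultured cells was 322 (95% counting interval 57.0 to 12790). These genes were thus detected in every fresh library and absent, or nearly so, from the counts of cultured cells.

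The remaining genes of the oligoadenylate synthetase family were scarce even in fresh cells. Oasl1 averaged 0.718 ± 0.568 CPM and Oas3 1.24 ± 1.22 CPM there, both had no cultured count, and both passed the test (adjusted p = 0.0142 and 0.0484), at least 5.58-fold and 3.10-fold lower. The bound of Oas3 moved to 1.26 and 4.89 when fresh replicate 4 or 5 was left out, and its call was lost in both cases (adjusted p = 0.223 and 0.0550). The call was also lost when any 1 cultured library was left out (0.0985 to 0.102), with DESeq2 (0.0994), without scaling factors (0.0588) and without the filter on low counts (0.109). Oas2 (0.799 ± 0.740 CPM) and Oas1a (0.430 ± 0.513 CPM, not tested) had counts in the run-1 fresh libraries and none in run 2, so the comparison within run 2 holds no value for them. Mx1, of which C57BL/6 carries a defective allele, averaged 0.781 ± 0.696 CPM in fresh cells, with none in culture (adjusted p = 0.0638). Mx1 passed when fresh replicate 4 was left out (0.0275) or the run term was dropped (0.0405), and not when fresh replicate 1 or any 1 cultured library was left out (0.0906 to 0.109), and without fresh replicate 5 no run-2 fresh count was left. Oasl2 was at -7.45 and -7.47 when cultured replicate 1 or 2 was left out, and had no cultured count left without cultured replicate 3, while Rsad2 was at -8.63 and -5.84 when fresh replicate 4 or 5 was left out and had no count left without cultured replicate 1.

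The other effectors did not follow this pattern. Ifit2 stood at 24.1, 17.8, 19.5, 18.6 and 12.2 CPM in fresh cells and at 4.69, 5.15 and 118 CPM in culture. Cultured replicates 1 and 2 lay below every fresh library and cultured replicate 3 above all of them, with 2318 counts. The fold change was 1.47 ± 1.27 (adjusted p = 0.432, edgeR), and it was -1.64 ± 0.55 without cultured replicate 3 (adjusted p = 0.0620). Isg20, an exonuclease that degrades viral RNA, averaged 20.0 ± 8.55 CPM in fresh against 19.6 ± 22.6 CPM in cultured cells (0.59 ± 0.89; adjusted p = 0.669), and its cultured libraries stood at 45.7, 7.51 and 5.66 CPM. The run-2 fresh mean of Isg20 was 13 CPM. Eif2ak2, the RNA-activated kinase PKR that halts translation, averaged 17.4 ± 6.54 and 6.09 ± 5.18 CPM (-2.00 ± 1.03; adjusted p = 0.185), with every cultured library below every fresh one.

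Of the ISG15 system, in which ISG15 is joined to proteins like ubiquitin and removed again by USP18, no gene passed the test. Isg15 itself was hardly detected, at 1.42, 1.40 and 3.36 CPM in run-1 fresh libraries, at 0 in both run-2 fresh libraries and at 1 count in cultured cells, so no fold can be given within run 2. Usp18 averaged 1.86 ± 0.736 CPM in fresh against 0.299 ± 0.517 CPM in cultured cells (-2.94 ± 1.66; adjusted p = 0.226), with all of its 17 cultured counts in cultured replicate 1. Trim25, the ubiquitin ligase that activates RIG-I, was the one abundant gene of this set, at 69.5, 69.3, 62.0, 60.6 and 96.9 CPM in fresh against 115, 32.7 and 86.5 CPM in cultured cells. Its cultured libraries lay on both sides of the fresh ones (-0.01 ± 0.47).

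**Figure D3:**
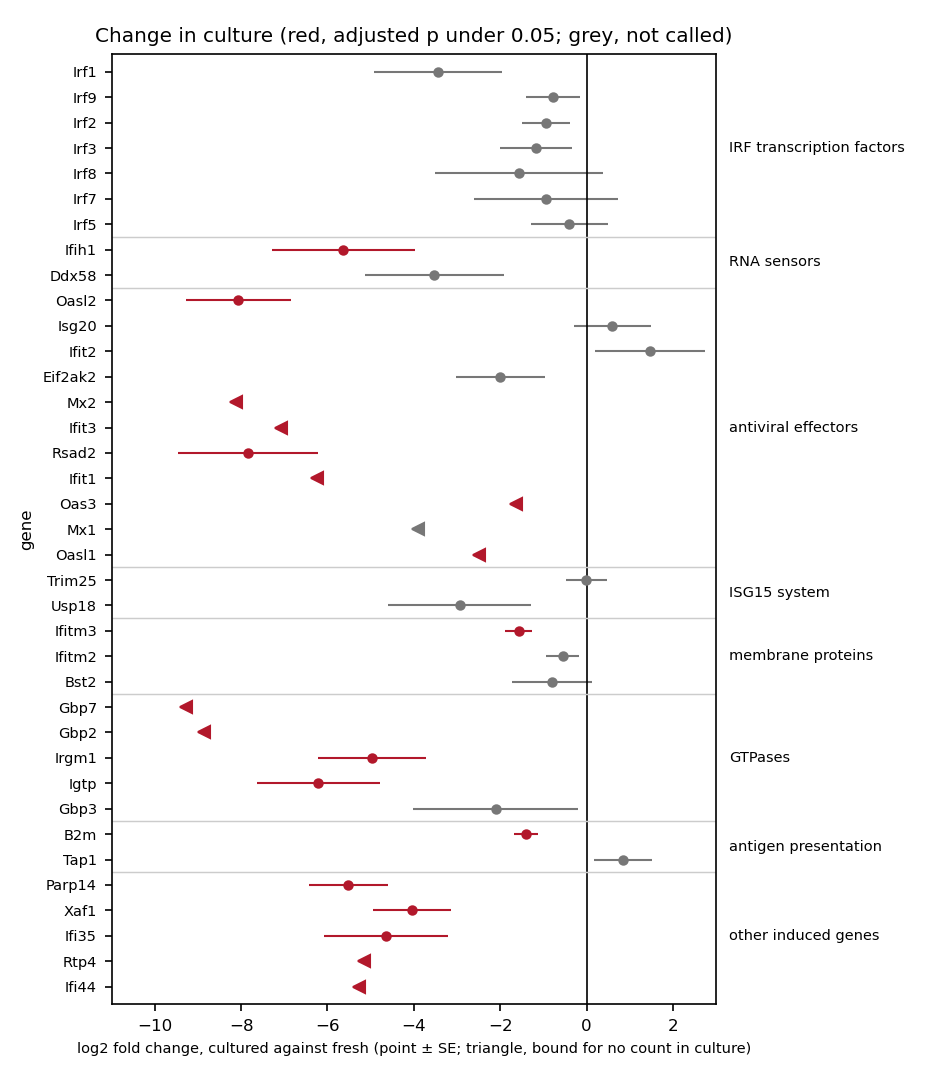
Log2 fold change of cultured against fresh cells (x axis) for the 37 members with a usable fold, by role; points with bars are fitted values ± SE, triangles are bounds for genes with no cultured count, red passed the test and grey did not. Of the 7 IRF genes all are grey, while 4 of the 5 GTPases and all 5 other induced genes are red.

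The membrane proteins that block entry or release of viruses included 2 of the 3 most abundant members, and 1 of the 3 tested fell. Ifitm3 stood at 460.3, 514 and 538 CPM in run-1 and at 255 and 252 CPM in run-2 fresh libraries, and at 126, 73.7 and 56.0 CPM in culture. Cultured cells lay below both runs, and Ifitm3 fell (-1.57 ± 0.32; adjusted p = 0.00771, edgeR). Ifitm2 stood at 108, 165, 156, 76.6 and 141 CPM in fresh against 48.2, 87.8 and 86.0 CPM in cultured cells, with overlap (-0.56 ± 0.37; adjusted p = 0.309). Ifitm2 and Ifitm3 are close paralogs, and the division of shared reads between them by RSEM is uncertain. Bst2, the tetherin that holds virions at the cell surface, averaged 2.79 ± 1.07 and 0.958 ± 0.606 CPM (-0.79 ± 0.93; adjusted p = 0.574).

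The interferon-inducible GTPases, which attack the vacuoles of intracellular pathogens, fell in 4 of 5 cases. Gbp7 stood at 19.3, 28.2, 26.9, 33.7 and 30.2 CPM in fresh cells, Gbp2 at 19.0, 26.4, 44.9, 27.2 and 20.8 CPM, and neither had a count in culture. They were at least 619-fold and 465-fold lower, the 2 largest bounds among the members (adjusted p = 0.000308 and 0.000567, edgeR). Igtp, also called Irgm3, stood at 11.3, 24.4, 17.0, 8.40 and 13.4 CPM in fresh against 0.421, 0 and 0 CPM in cultured cells (-6.22 ± 1.43; adjusted p = 0.0127). Irgm1 stood at 19.2, 17.3, 16.2, 30.6 and 15.0 CPM in fresh against 0, 0.566 and 1.58 CPM in cultured cells (-4.98 ± 1.25; adjusted p = 0.0184). Cultured values of all 4 were under every fresh value. Igtp overlaps Irgm2 on the same strand, so reads may be shared, and Irgm2 fell from 57.9 ± 17.3 CPM to no count. Gbp3 stood apart, at 6.54 ± 2.35 CPM in fresh cells and at 0, 0 and 4.89 CPM in culture (-2.11 ± 1.91; adjusted p = 0.456), and no cultured count was left without cultured replicate 3. Igtp lost its call without fresh replicate 5 (adjusted p = 0.0511) and in run 2 alone (0.101), and kept no cultured count without cultured replicate 1. Irgm1 lost its call without fresh replicate 4 (-4.31; adjusted p = 0.0985) and in run 2 alone (0.103), and moved to -4.34 or -6.25 when cultured replicate 1 or 3 was left out.

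Of the antigen presentation members, B2m, the light chain of MHC class I, stood at 142, 226, 254, 309 and 242 CPM in fresh against 103, 117 and 92.6 CPM in cultured cells. The cultured libraries lay close together and just under the lowest fresh one, and B2m fell (-1.40 ± 0.28; adjusted p = 0.00762, edgeR; 0.0625 without fresh replicate 4). Tap1, the peptide transporter of the class I pathway, averaged 9.46 ± 2.74 CPM in fresh against 15.8 ± 6.52 CPM in cultured cells (0.84 ± 0.67; adjusted p = 0.393). Tap1 and Psmb9 overlap on opposite strands, and without a stated use of strand their reads cannot be told apart there.

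All 5 of the other induced genes fell. Parp14, an ADP-ribosyltransferase, stood at 39.0, 59.5, 62.4, 41.6 and 53.4 CPM in fresh against 0.105, 2.21 and 0.764 CPM in cultured cells (-5.52 ± 0.91; adjusted p = 0.00361, edgeR). Xaf1, a proapoptotic antagonist of XIAP, stood at 12.7, 10.8, 10.5, 5.24 and 27.0 CPM in fresh against 1.69, 0.566 and 0.662 CPM in cultured cells (-4.04 ± 0.91; adjusted p = 0.0117). Ifi35 stood at 8.15, 8.41, 8.04, 12.9 and 4.43 CPM in fresh against 0, 0.103 and 0.917 CPM in cultured cells (-4.64 ± 1.44; adjusted p = 0.0428). In each of the 3 genes the highest cultured library was below the lowest fresh one. Rtp4 (3.40 ± 2.03 CPM in fresh cells) and Ifi44 (1.66 ± 1.34 CPM) had no cultured count, at least 35.4-fold and 38.5-fold lower (adjusted p = 0.0115 and 0.0182). Leaving out fresh replicate 4 or 5 moved the bound of Rtp4 to 61.8 or 9.78. That of Ifi44 was 2.52 without fresh replicate 4, where its call was lost (adjusted p = 0.0644), and 73.3 without fresh replicate 5. Ifi35 lost its call without any 1 fresh library (adjusted p between 0.0755 and 0.206), in run 2 alone (0.170), without cultured replicate 2 (0.0783), without scaling factors (0.0656) and against run-1 fresh libraries (0.0535). Its fold change was -3.61 without fresh replicate 4, and -4.01 or -7.18 when cultured replicate 1 or 3 was left out. Xaf1 lost its call without fresh replicate 5 (-2.43; adjusted p = 0.138) and in run 2 alone (0.0717), and was at -4.75 without fresh replicate 4 and -4.63 without cultured replicate 1. Parp14 moved to -4.93 or -6.70 when cultured replicate 1 or 2 was left out, and stayed under an adjusted p of 0.05 in both.

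A further feature of the cultured libraries was that single ones held most of the counts of a gene. Among the 24 members with at least 10 counts over the 3 cultured libraries, 9 had at least 80% of their summed CPM in 1 library (37.5%), as did 19.3% of all 15202 tested genes with as many counts, a limit chosen after the values were seen. In the 3 run-1 fresh libraries this was so for none of 39 members and for 0.433% of all genes. The cultured libraries were all of run 2, so culture and run cannot be told apart in this comparison. The run-2 fresh libraries were not counted in this way, and some members were uneven there too. Fresh replicates 4 and 5 stood at 3.79 and 0.130 CPM for Ifi44 and at 1.39 and 9.84 CPM for Rsad2. The cultured library that held most was not always the same. Cultured replicate 1 held 95.6% for Irf1 and all for Irf8 and Usp18, cultured replicate 2 held 99.1% for Ddx58, and cultured replicate 3 held 92.3% for Ifit2, 95.2% for Irf7, 89.9% for Ifi35 and all for Ifih1 and Gbp3. Of these 9, only Ifih1 and Ifi35 passed the test.

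**Figure D4:**
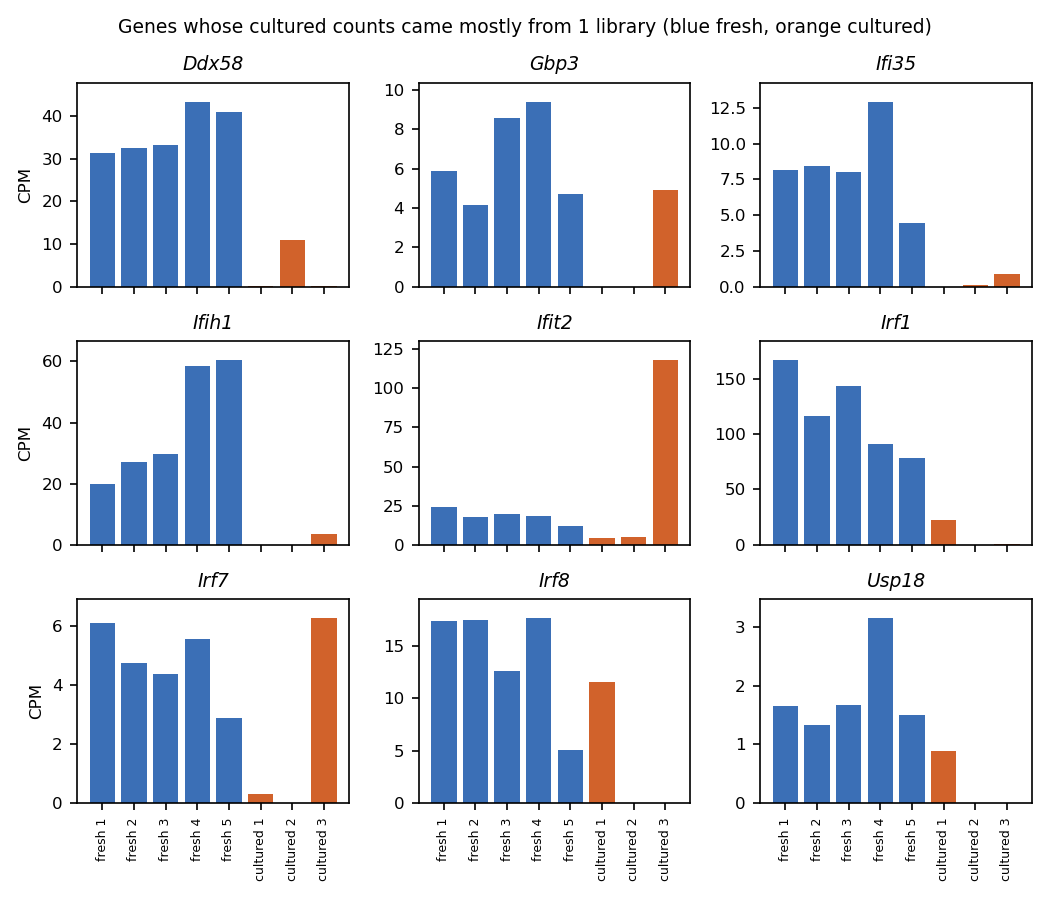
CPM (y axis, separate scale per gene) in each library (x axis; blue fresh, orange cultured) for the 9 members with at least 80% of their cultured level in 1 library. The tall cultured bar of Ifit2 is cultured replicate 3 at 118 CPM, above all fresh libraries, while that of Irf1 is cultured replicate 1 at 22.4 CPM, below all of them.

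Between the sequencing runs, fresh cells of run 2 against run 1, no member passed the test (edgeR; 4 at an unadjusted p under 0.05), and 0.0945% of all genes were called in each direction. The lowest adjusted p among members, 0.0603, belonged to Isg15 and Oas2, which were at 0 in both run-2 fresh libraries. Ifitm3 was lower in run 2 by a log2 ratio of -0.99 (adjusted p = 0.168), and Ifih1 higher by 1.22 (adjusted p = 0.849). When the 5 fresh libraries were fitted alone, 4 of 40 members were lower and 2 higher in run 2. Of all 21313 genes tested there, 16.1% were lower and 1144 were higher, so members were not called more often than genes in general. Ifitm3 (-0.95; adjusted p = 0.0294) was among the lower members and Ifih1 (1.26; adjusted p = 0.0284) among the higher.

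The rest of the interferon pathway was described with 58 further genes, of which 53 were tested: 14 fell, 1 rose and 38 did not pass. That is 26.4% lower, where 18.0% of all genes were lower. The interferon genes on the list were hardly seen: Ifnb1 and Ifng had 1 count each in the whole series and Ifna4 had 4, 2 and 1 counts in the run-1 fresh libraries, and none could be tested. The receptor chains of type I interferon did not pass: Ifnar1 stood at 53.0, 62.3, 61.2, 59.1 and 57.1 CPM in fresh against 42.4, 25.5 and 56.0 CPM in cultured cells (-0.49 ± 0.36; adjusted p = 0.346, edgeR). Ifnar2 averaged 72.7 ± 24.4 and 34.5 ± 16.8 CPM (-0.60 ± 0.46; adjusted p = 0.372). Of the interferon gamma receptor, Ifngr1 averaged 41.8 ± 8.54 and 17.5 ± 12.3 CPM (adjusted p = 0.301) and Ifngr2 10.2 ± 2.82 and 17.6 ± 5.60 CPM (adjusted p = 0.279). The kinases Jak1 (277 ± 59.7 and 158 ± 13.6 CPM; adjusted p = 0.118), Jak2 (59.2 ± 11.5 and 26.4 ± 23.5 CPM; adjusted p = 0.163) and Tyk2 (8.49 ± 3.54 and 5.42 ± 0.753 CPM; adjusted p = 0.364) did not pass either.

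Stat2, the STAT protein that IRF9 binds in ISGF3, stood at 55.6, 65.8, 89.9, 37.5 and 68.0 CPM in fresh against 0, 9.16 and 3.01 CPM in cultured cells, without overlap (-3.70 ± 1.26; adjusted p = 0.0592, edgeR, and 0.0141 with DESeq2). Without cultured replicate 1 it was at -3.05 (adjusted p = 0.00401), and without cultured replicate 2 at -5.07 (adjusted p = 0.0272). Of the receptor and kinase genes named, Ifngr1 and Jak1 also had every cultured library below every fresh one, while those of the others overlapped. Whether these changes differ from that of Stat2 was not tested.

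**Figure D5:**
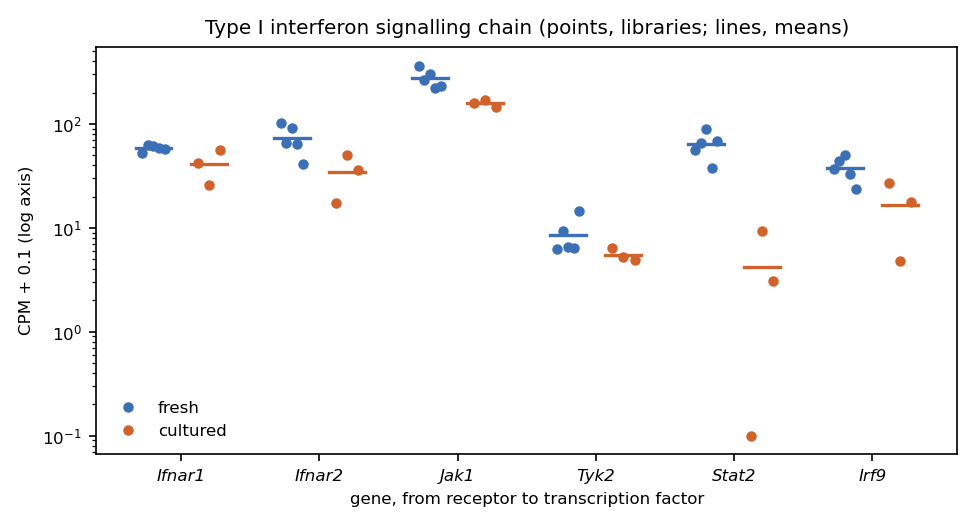
CPM + 0.1 (log axis) of the type I interferon signalling chain from receptor to transcription factor; points are libraries (blue fresh, orange cultured) and lines are means. Stat2 shows a cultured mean of 4.06 CPM against a fresh mean of 63.4 CPM, while the points of Ifnar1 and Ifnar2 overlap.

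Among the regulators, Socs3, a feedback inhibitor of JAK kinases, stood at 414, 457, 366, 402 and 358 CPM in fresh cells and at 14.8, 0.206 and 7.34 CPM in culture (-5.67 ± 1.09; adjusted p = 0.00636, edgeR), and at -6.59 without cultured replicate 1. Ifi27, an interferon-induced mitochondrial protein, fell from 58.8 ± 14.5 to 7.59 ± 10.4 CPM (-3.21 ± 1.02; adjusted p = 0.0459), and Tlr4, the endotoxin receptor, from 35.3 ± 13.3 to 7.17 ± 5.96 CPM (-2.77 ± 0.89; adjusted p = 0.0487). Both calls were marginal: each was lost without any 1 fresh library (adjusted p of 0.0709 to 0.163 for Ifi27 and 0.0764 to 0.181 for Tlr4), that of Ifi27 also without cultured replicate 2 (0.0776), in run 2 alone (0.137) and against run-1 fresh libraries (0.0718). That of Tlr4 was also lost without cultured replicate 3 (0.0832), in run 2 alone (0.146), against run-1 fresh libraries (0.185), without scaling factors (0.0977) and with a stricter filter (0.0516). Ifi27 was at -5.40 without cultured replicate 1, and Tlr4 at -2.17 and -3.36 without cultured replicates 1 and 2. Mb21d1 was the only one of the 58 that rose. It encodes the DNA sensor cGAS and stood at 9.91, 9.35, 8.58, 4.93 and 2.35 CPM in fresh against 16.9, 32.6 and 12.6 CPM in cultured cells (2.51 ± 0.71; adjusted p = 0.0310). It lost the call without any 1 fresh library (adjusted p between 0.0549 and 0.176), without cultured replicate 2 (0.0639), in run 2 alone and against run-1 fresh libraries (0.123 in each), with no run term (0.0558) and without the filter on low counts (0.0569), and was at 3.19 without fresh replicate 4.

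Of the listed genes of MHC class I presentation, the heavy chain genes H2-K1, H2-D1 and H2-T23 and the loading genes Erap1 and Tapbp fell, while the transporter and immunoproteasome genes did not pass. H2-K1 stood at 570.2, 432, 416, 385 and 282 CPM in fresh against 44.0, 60.6 and 51.3 CPM in cultured cells (-2.68 ± 0.26; adjusted p = 0.000322, edgeR). H2-D1 stood at 319, 268, 253, 220.0 and 157 CPM in fresh against 23.6, 21.5 and 26.8 CPM in cultured cells (-2.98 ± 0.25; adjusted p = 0.000180). Both were far below the fresh range in all 3 cultured libraries, with little spread, and because class I genes are alike in sequence the division of reads between them is uncertain. Erap1, the peptide trimming protease of the endoplasmic reticulum, fell from 22.8 ± 3.38 to 5.14 ± 2.18 CPM (-2.18 ± 0.53; adjusted p = 0.0162; 0.103 without fresh replicate 5 and 0.118 in run 2 alone). Tapbp, the peptide loading factor tapasin, fell from 25.8 ± 6.05 to 2.28 ± 2.19 CPM (-3.08 ± 0.96; adjusted p = 0.0441), a call lost without any 1 fresh library (0.0769 to 0.154), without cultured replicate 3 (0.0883), in run 2 alone (0.182) and without scaling factors (0.0820). Leaving out cultured replicate 1 or 2 moved it to -2.47 or -4.01. The 6 further genes that fell, all under 10 CPM, were Irf4, Ptpn6, Ifitm1, Sp100, Nlrc5, the class I transactivator, and H2-T23. Of these calls, Ifitm1 lost its own without fresh replicate 5 (adjusted p = 0.0573) and Nlrc5 without fresh replicate 4 (0.0565). H2-T23 lost its call without any 1 fresh library (0.0747 to 0.119) or cultured replicate 2 (0.0711), and Ptpn6 without fresh replicate 1, 2, 3 or 5 (0.0898 to 0.152) or cultured replicate 1 or 2 (0.0817 and 0.0890). Tap2 (4.12 ± 1.24 and 14.5 ± 22.5 CPM; adjusted p = 0.316) and the immunoproteasome genes Psmb8, Psmb9 and Psmb10 (adjusted p = 0.772, 0.246 and 0.614) did not pass.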

How the data were processed

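RNA was isolated with a Qiagen micro kit and amplified as cDNA with NuGEN Ovation before Illumina library construction, per the labels' protocols. STAR, RSEM and mm10 are named in the submitters' processing notes, while versions, annotation release and strand setting were not given in the sources used here. Expected counts, which RSEM estimates for each gene, were deposited by the authors as 1 table. Of the values above 0, 50.1% were not whole, and all were rounded before testing. The 92 spike-in lines were left out, and the 2423 lines with no identifier (0.385 to 0.568% of counts) stayed in.

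Genes were kept by filterByExpr, scaled by TMM and tested with edgeR 4.0.16 (R 4.3.3) with run and culture as terms and 5 residual degrees of freedom, so that the culture coefficient compares libraries of run 2. Standard errors were derived from each fold change and its test statistic and are approximate. Alternatives were DESeq2 1.42.0, other scalings and filters, other sets of libraries and a replicate block. For a gene with no cultured count the bound sets the pooled run-2 fresh level against 3 counts over the cultured libraries, 0.0517 CPM, and intervals and floors cover counting error only. The labels do not tie libraries to animals or cultures, so p-values speak only of how far these samples differ within a group, which may be technical. No 2 libraries agreed within sampling noise. The model was tested on simulated data in which only the more abundant genes were changed and no run effect was set. That test does not speak for scarce genes or for a run effect.

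Members, role groups and lists were chosen with earlier results of these data known. Values by library are given for called members with at least 5 CPM in a group, for the 8 most abundant members not called and for other members where a library decided the value. Pathway genes are named if called with at least 10 CPM, or as receptors, kinases and Stat2, and others named were chosen after their values were seen. All 40 members matched GENCODE M21 (GRCm38) identifiers. RefSeq windows follow the strand of the gene, since in 37 of 41 the bases after the start were found in a transcript. A result that the rule takes is not reported here.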

Additional observations from a re-analysis of the deposited data

Results flagged for a closer look

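In 5 of 48 genes tested for it, 1 fresh library lay apart from the other 4 by more than Dixon's critical value. Chance alone gives about 1 in 20 where all libraries are of one kind, whereas these came from 2 runs. In all 5 genes the library apart was one of run 2. Fresh replicate 5 was the high library for Irf5 (9.32 CPM, next highest 3.14 CPM) and Trim25 (96.9 CPM, next 69.5 CPM). Fresh replicate 4 was the high library for Oasl2 (46.0 CPM, next 33.1 CPM), Usp18 (3.16 CPM, next 1.68 CPM) and Irgm1 (30.6 CPM, next 19.2 CPM). Oasl2 and Irgm1 are among the genes that fell, and the call of Irgm1 was lost without that library.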

How the results depend on the processing

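Of the 19 members that fell, Oasl2, Mx2, Ifitm3, Gbp2, Gbp7 and Parp14 kept their call in all 19 alternatives, and no alternative called a member higher in culture. Leaving out 1 library at a time gave 14 to 21 members lower, 3337 to 6163 genes called, 896 to 2198 higher, 7 to 19 other pathway genes lower and 0 to 4 higher. The lowest member counts, 14 each, came without fresh replicate 4 or 5, which also gave 3402 and 3337 genes called against 5122 with all. Run 2 alone gave 10 members lower, 2780 genes called (1013 higher, 1767 lower) and 5 other pathway genes lower, 0 higher. Other pathway genes higher were 2 with DESeq2 and 0 without the filter on low counts. Isg15 and Oas2, at 1.77 and 0 in the model although without a usable fold, were at -6.37 and -7.55 against run-1 fresh libraries alone (adjusted p = 0.00449 and 0.00372), the libraries that held their counts.

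Whether the replicate numbers shared by fresh and cultured libraries pair them is not stated in the labels. Same-numbered deviations correlated at 0.03, 0.01 and 0.011, and each was highest with its own number. These values do not settle the question. The replicate block, cultured against run-1 fresh libraries, gave 8 members lower (7 of them among the 19), 2731 genes called (1384 lower) and 6 other pathway genes lower, 0 higher.

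Between runs, all libraries gave 36 genes called (18 higher, 18 lower). Without 1 library this was 1 to 36 (1 to 24 higher, 0 to 12 lower), and without scaling factors 10 were higher. The 5 fresh libraries alone gave 4574 (1144 higher, 3430 lower), with 4 members lower and 2 higher and 4 other pathway genes lower and 2 higher. The causes were not tested. For Oas1a and Oas2, at 0 in both run-2 fresh and all cultured libraries, a difference within run 2 was not detectable at these counts.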
